A study of Homo sapiens with 6 samples.

Results

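The genes described here encode the adhesion molecules by which lymphocytes hold to each other and to vessel walls: the integrin chains ITGA4, ITGAL, ITGB1, ITGB7 and ITGB2, the integrin ligands ICAM1, ICAM2 and ICAM3, and the selectin ligand SELPLG. They were read from all probe sets, groups of probes against one transcript, whose gene symbol in the platform annotation was exactly one of these 9 symbols. This gave 25 of the 54675 probe sets on the array. RNA came from RL, an established human B lymphoid line that the labels give as t(14,18)+, the translocation typical of follicular lymphoma. MALC, multicellular aggregates of these cells collected after 10 days of culture, were set against RL cells in suspension collected in exponential growth, with 3 samples of each form on 1 Affymetrix U133 Plus array apiece. Culture form thus went together with time in culture and growth phase, and their parts cannot be told apart here. Both forms carried the same genotype and were untreated, and all samples came from a single line. Since the labels do not give the origin of each sample, the spread behind the p-values may be that of repeated preparations of 1 culture, and the tests reach no further than these 6 samples.

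Integrins are pairs of an alpha and a beta chain that span the membrane and bind a partner firmly only after a signal from inside the cell has opened them. In B cells the alpha 4 chain pairs with beta 1 to bind VCAM1 and fibronectin, and with beta 7 to bind MADCAM1 of gut vessels. The alpha L chain pairs with beta 2 as LFA-1, the receptor of ICAM1, ICAM2 and ICAM3, through which lymphocytes form clusters with each other. SELPLG encodes PSGL-1, the mucin that lets leukocytes roll on selectins once it carries sulfate and sugar groups.

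In MALC the beta 1 integrin gene ITGB1 rose by 1.30- to 1.64-fold in its 3 bright probe sets, and the beta 7 gene ITGB7 was 1.65-fold lower. ICAM1 rose by 1.45- and 1.65-fold in 2 of its 3 probe sets. ICAM2 and ICAM3 each had 1 call, 1.20- and 1.17-fold higher, and both were lost when single arrays were left out. No probe set of the LFA-1 genes ITGAL and ITGB2 or of SELPLG passed the test. All 4 probe sets of ITGA4 lay near the lowest values of the arrays in both culture forms. In bulk RNA, fewer cells expressing a gene and less of its RNA per cell cannot be told apart.

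The fit ran across all 32768 probe sets whose mean log2 value reached the 40th percentile, a signal of 53.4, and 17 of the 25 probe sets reached it. Of these 17, 7 rose in MALC and 1 fell in limma with Benjamini-Hochberg adjustment at 0.05, which is 41.2% and 5.88% of them. Across all tested probe sets 21.2% rose and 20.4% fell, so 41.7% changed in either direction, against 47.1% of the 17. The share that changed was thus near that of all probe sets. Probe sets of 1 gene report on the same transcripts and are not separate evidence. The groups did not overlap in 10 of the 17 (58.8%), against 56.1% of all tested probe sets. The median log2 change of the 17 was 0.18, against −0.04 over all tested probe sets, and the median size of the change was 0.25 against 0.20. None of the 17 changed by 2-fold or more.

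Signals are linear, and the arrays had medians between 80.75 and 81.67 for MALC, and between 80.88 and 81.56 for suspension. The ratio of 3′ to 5′ signal, which rises with RNA breakdown, lay for GAPDH between 1.012 and 1.018 in MALC arrays, against 1.037 and 1.059 in suspension arrays, without overlap. For ACTB it lay between 1.222 and 1.332 in MALC arrays, against 1.31 and 1.542 in suspension arrays, with overlap. Its part in the results was not tested. Within each form, arrays 2 and 3 were more alike than either was with array 1 (correlation of log2 values 0.99764 in MALC and 0.99826 in suspension, against 0.99079 to 0.99189 for pairs with array 1), so 3 samples may stand for fewer independent units. When arrays 2 and 3 of each form were averaged to 1 sample, 4 probe sets remained called as higher and 1 as lower, and these were the 3 of ITGB1, 1 of ICAM1 and that of ITGB7. Of the B cell markers 5 of 6 were measured and none passed in limma, although CD79B (log2 change 0.17, adjusted p = 0.127) did with a block for the number (0.0319), with summed signals of 27830 to 31910 in MALC and 28000 to 33430 in suspension. Of the other markers 5 of 6 for T, 1 of 6 for myeloid and 3 of 5 for endothelial cells were tested. So were 4 of 5 for fibroblasts and 2 of 5 for erythroid cells or platelets, and none of these passed in limma either. Of all tested markers 2 had an unadjusted p under 0.05, COL1A2 (adjusted p = 0.0806, and 0.0467 with a block for the number) and PDGFRB (adjusted p = 0.0627), both of fibroblasts. Summed T cell markers ran from 462.9 to 468.9 in MALC and from 470.9 to 520.1 in suspension, and summed myeloid markers from 185.4 to 201.9 and from 203.1 to 212.5. The endothelial sums overlapped between the groups, as did those of erythroid cells or platelets. The summed fibroblast markers ran from 512.2 to 559.2 in MALC and from 590.7 to 896.2 in suspension. COL1A2, a collagen chain of fibroblasts, was at 346.6 and 126.9 in suspension 2 and 3 against 54.08 in suspension 1. COL1A1 did not stand high in suspension 2 and 3, at 273.9, 265.9 and 288.8 in MALC against 296.9, 284.7 and 284.4 in suspension. PDGFRB read 117.3, 116.3 and 104.9 in suspension 1, 2 and 3. DCN and LUM, defining fibroblast markers, were at 89.53 to 108.1 and 12.51 to 15.74 in MALC, and at 105.0 to 129.8 and 16.17 to 18.83 in suspension. LUM lay below the filter.

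ITGB1, the beta 1 chain shared by many integrins, was represented by 7 probe sets, of which 3 were bright. With 1553530_a_at the signals were 2300, 2933 and 2803 in MALC 1, 2 and 3, against 1495, 1631 and 1753 in suspension 1, 2 and 3. The lowest MALC array thus lay above the highest suspension array. The log2 change was 0.71 ± 0.11 (SE; adjusted p = 0.00183). With 1553678_a_at the signals were 2951, 3469 and 3346 in MALC, against 1914, 2124 and 2159 in suspension, again with no overlap. The log2 change there was 0.65 ± 0.08 (adjusted p = 0.000985). The third, 211945_s_at, read 9753, 10630 and 10730 in MALC, against 7444, 8309 and 8267 in suspension. Its groups were also apart, but the log2 change of 0.37 ± 0.06 (adjusted p = 0.00233) was the smallest of the 3, with a 95% interval of 0.23 to 0.51 against 0.46 to 0.84 for 1553678_a_at and 0.46 to 0.96 for 1553530_a_at. The difference between these probe sets was not tested.

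The size of the ITGB1 rise was alike in the 3 pairs of same-numbered arrays, at 0.62 to 0.84, 0.62 to 0.70 and 0.35 to 0.39 in the order above. All 3 probe sets passed with any single array left out, the highest adjusted p being 0.0152 in limma. FN1, a matrix gene described further on, stood high in suspension 2 and 3. Without these arrays, an alternative chosen after seeing the data, the ITGB1 log2 changes were 0.83, 0.76 and 0.48. They are given as values, since 1 suspension array has no spread of its own and the MALC arrays alone supply it in that fit. The other 4 ITGB1 probe sets had signals of 9.466 to 27.19 and lay below the filter. Among these, 216178_x_at read 21.39, 27.19 and 21.58 in MALC, against 17.21, 16.22 and 18.04 in suspension. At 215878_at the signals were 16.04, 15.73 and 15.90 in MALC, against 13.44, 13.26 and 13.48 in suspension. These values are close to the lowest signals of the arrays, 7.801 to 8.196, so the steps between the groups are small in signal, and 215879_at and 216190_x_at overlapped between the groups.

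ITGB7, which pairs with alpha 4 or alpha E, had a single probe set, 205718_at. Its signals were 691.4, 587.4 and 558.9 in MALC 1, 2 and 3, against 1181, 976.7 and 919.0 in suspension 1, 2 and 3. The groups did not overlap, and array 1 was the highest of its group in both forms. ITGB7 had a log2 change of −0.73 ± 0.12 (SE; adjusted p = 0.0027), with differences of −0.76, −0.72 and −0.70 between same-numbered arrays. The call held with any single array left out (highest adjusted p = 0.0163). With each of the 9 genes read at its brightest probe set, ITGB7 had the largest change of the 8 tested. This ranking depends on the probe set. The log2 changes at the other tested probe sets were 0.71 and 0.65 for ITGB1, and 0.72 and 0.18 for ICAM1. The 3 genes with values nearest to it over the 6 arrays, by Euclidean distance between log2 values taken relative to the suspension mean, were PRADC1 (distance 0.074), DTYMK, the thymidylate kinase of nucleotide synthesis (0.088), and WDR12, a ribosome assembly factor (0.089). Their log2 changes were −0.76, −0.74 and −0.71. Since they were picked as the nearest of 13764 genes, changes close to that of ITGB7 follow from the choice.

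The promoters of the 3 genes with calls that held with any single array left out are shown for reference, from 250 bases before to 50 after the gene start, 5′ to 3′, as RefSeq gives them for GRCh38.p14. That of ICAM1 is chr19:10270870-10271169 on the plus strand, that of ITGB1 chr10:32958181-32958480 on the minus strand (the more upstream of its 2 starts in the table) and that of ITGB7 chr12:53207202-53207501 on the minus strand.
ICAM1: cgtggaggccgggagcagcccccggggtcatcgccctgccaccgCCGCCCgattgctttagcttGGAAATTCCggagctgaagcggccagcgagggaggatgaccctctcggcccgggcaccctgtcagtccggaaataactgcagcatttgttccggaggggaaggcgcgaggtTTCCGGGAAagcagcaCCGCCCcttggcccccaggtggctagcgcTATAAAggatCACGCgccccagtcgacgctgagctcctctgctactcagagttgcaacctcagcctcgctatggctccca
ITGB1: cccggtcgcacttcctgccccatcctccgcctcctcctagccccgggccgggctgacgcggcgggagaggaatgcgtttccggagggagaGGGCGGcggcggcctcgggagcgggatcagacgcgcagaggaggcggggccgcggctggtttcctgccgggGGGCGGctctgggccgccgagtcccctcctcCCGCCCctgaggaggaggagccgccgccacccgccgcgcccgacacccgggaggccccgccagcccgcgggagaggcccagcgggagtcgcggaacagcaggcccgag
ITGB7: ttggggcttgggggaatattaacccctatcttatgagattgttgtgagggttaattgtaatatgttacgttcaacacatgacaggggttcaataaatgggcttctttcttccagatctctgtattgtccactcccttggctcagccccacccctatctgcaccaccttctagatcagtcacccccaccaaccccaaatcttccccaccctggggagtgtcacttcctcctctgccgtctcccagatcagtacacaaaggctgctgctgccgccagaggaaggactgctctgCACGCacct
Capitals mark 6 motifs searched on both strands: TATAAA (the TATA box), GGGCGG (the GC box bound by SP1), GGAAATTCC (an NF-kB site), TTCCNGGAA (a STAT site), and ACGTG and GCGTG (cores of the hypoxia response element). No motif overlapped another in these windows. Positions count from 0 at the gene start to the motif's first base.

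The ICAM1 window held GGAAATTCC at −186, TTCCNGGAA at −75 and TATAAA at −30, besides GGGCGG, on the opposite strand, at −206 and −59 and GCGTG, also on the opposite strand, at −20. Of the 35116 promoters of this length in the table, 0.461% held GGAAATTCC, 1.15% TTCCNGGAA, 11.5% TATAAA, 45.0% GGGCGG, 36.5% GCGTG and 21.4% ACGTG. The ITGB1 window, 78.3% G and C, held GGGCGG at −160, −89 and, on the opposite strand, −58 and none of the other motifs, and the ITGB7 window, 51.7% G and C, held GCGTG on the opposite strand at 41 alone. A match is a description of the letters, not of a bound site.

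ITGB2, the beta 2 chain of LFA-1, had 3 probe sets, and none passed. With 202803_s_at the signals were 2433, 2198 and 2303 in MALC, against 2231, 2358 and 2244 in suspension, so that the groups lay within each other. The log2 change was 0.02 with a 95% interval of −0.13 to 0.17 (adjusted p = 0.82). The probe set 1555349_a_at read 1271, 1185 and 1211 in MALC, against 1050, 1186 and 1118 in suspension. Its interval ran from −0.04 to 0.30 (adjusted p = 0.197). The third, 236988_x_at, read 494.5, 493.9 and 432.9 in MALC, against 606.7, 554.6 and 533.6 in suspension, where the groups did not overlap. Its log2 change was −0.25 ± 0.09 (adjusted p = 0.0545; 0.0303 with a block for the number, 0.0419 without MALC 1). The 3 probe sets thus differed in the sign of their changes, and the difference was not tested.

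ITGAL, the alpha L chain that pairs with beta 2, had 2 probe sets. With 1554240_a_at the signals were 855.8, 746.0 and 710.9 in MALC, against 893.7, 796.6 and 773.6 in suspension. The groups overlapped, and the log2 change was −0.09 with an interval of −0.32 to 0.13 (adjusted p = 0.474). With 213475_s_at the values were 798.1, 744.1 and 693.7 in MALC, against 773.2, 763.2 and 785.9 in suspension, with an interval of −0.23 to 0.12 (adjusted p = 0.582). For the LFA-1 chains the 95% intervals of all probe sets except 236988_x_at held 0, reaching at most from −0.32 to 0.30.

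ITGA4, the alpha 4 chain that pairs with beta 1 and beta 7, had signals of 10.51 to 16.56 over its 4 probe sets and 6 arrays, all below the filter. With 243366_s_at the signals were 14.64, 13.50 and 16.56 in MALC, against 15.82, 16.03 and 14.24 in suspension. With 205884_at they were 12.04, 11.78 and 11.47 in MALC, against 12.26, 12.55 and 10.51 in suspension. The log2 changes of the 4 probe sets lay between −0.05 and 0.00. A level of ITGA4 above background was therefore not shown in either culture form, and detection calls were not used here.

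**Figure D1:**
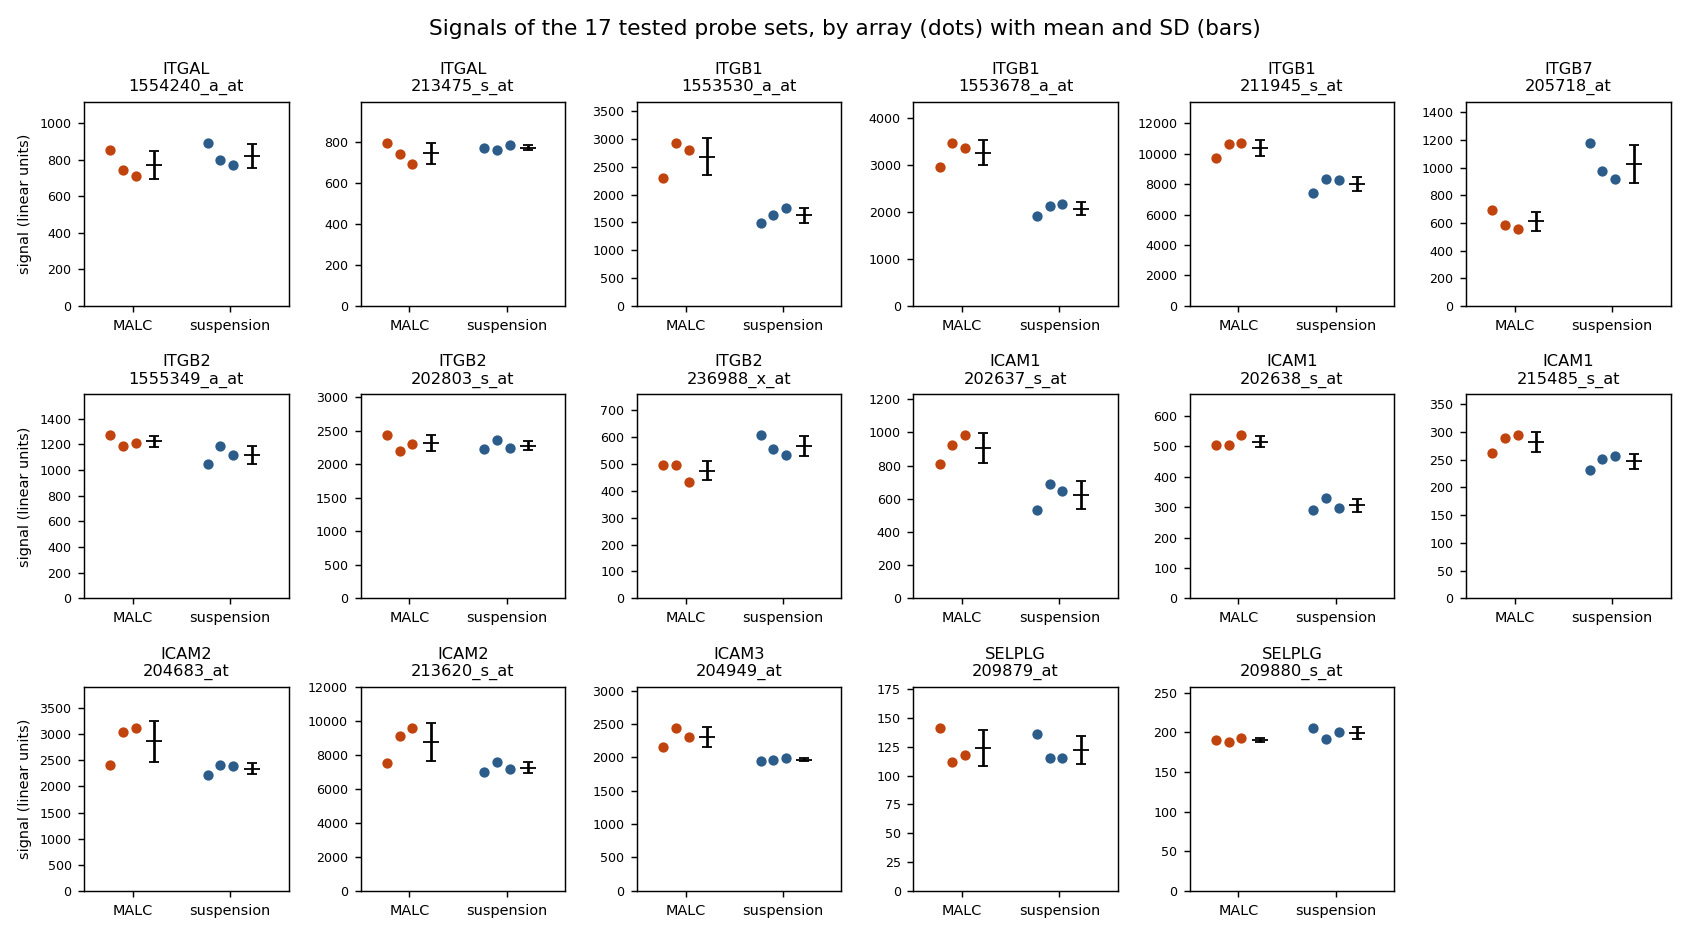
Signal of each of the 17 tested probe sets (linear units, each axis from 0) in MALC and suspension arrays, samples 1 to 3 from left to right within a group, with the mean and SD beside the dots (n = 3). The 3 bright ITGB1 and the 3 ICAM1 probe sets lie higher in all MALC arrays than in any suspension array, ITGB7 lies lower, and ITGAL and SELPLG overlap between the groups.

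**Figure D2:**
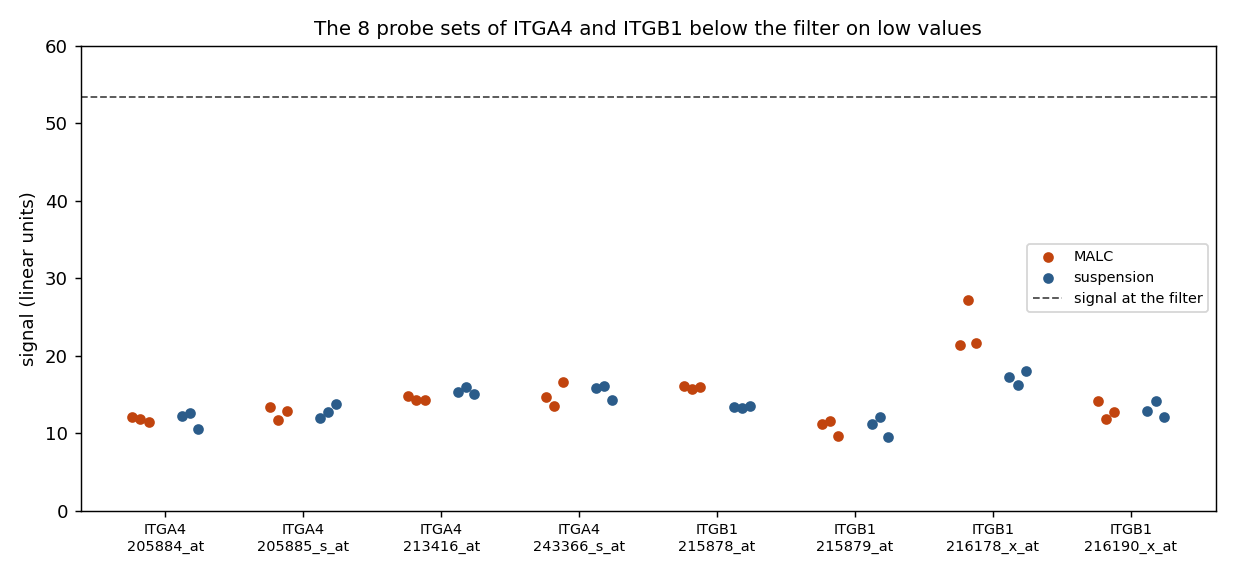
Signals (linear units) of the 4 ITGA4 and 4 ITGB1 probe sets below the filter, with MALC arrays left of suspension arrays for each probe set and a dashed line at the filter's signal of 53.4. All values lie between 9.466 and 27.19, and ITGA4 overlaps between the groups in 3 of its 4 probe sets.

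The other integrin chains were examined for partners, through a list of 21 subunits of which 16 were tested. In the fit across genes ITGAX rose and ITGA8 and ITGB3 fell, so 18.8% of the list changed against 42.7% of all 13765 genes tested, of which 19.0% rose, 23.7% fell and 56.9% had groups that did not overlap. The median log2 change was −0.06, equal to that of all genes. ITGAX, the alpha X chain that also pairs with beta 2, read 89.96, 114.2 and 106.5 in MALC, against 68.63, 73.83 and 68.06 in suspension. It was 1.38-fold higher (adjusted p = 0.00346), at a low signal. The fall of ITGA8, an alpha chain of smooth muscle and kidney, was 1.21-fold at 1 probe set, 242071_x_at, of 136.8 to 182.4. Its other probe sets, 214265_at, 235666_at and 239092_at, read 12.29 to 20.63, close to the lowest signals of the arrays, and lay below the filter. The fall of ITGB3, the platelet beta 3 chain, was 1.12-fold. Leaving out any array but suspension 1 ended the ITGB3 call, as did a block for the number (adjusted p = 0.0607), and 2 further ITGB3 probe sets changed by 0.02 and −0.06 on the log2 scale. Without suspension 2 and suspension 3 the log2 changes of ITGAX and ITGA8 were 0.49 and −0.32, against 0.47 and −0.28 with all arrays. The rises of the list numbered 2 without MALC 1 or suspension 1. ITGAV, ITGA5, ITGA3 and ITGA9, which can pair with beta 1, and ITGAE, which pairs with beta 7, did not pass, at log2 changes of 0.17, −0.08, −0.05, −0.12 and 0.20.

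ICAM1, the inducible ligand of LFA-1, had 3 probe sets. With 202638_s_at the signals were 505.6, 504.4 and 536.8 in MALC 1, 2 and 3, against 289.3, 330.4 and 298.5 in suspension 1, 2 and 3. The groups were well apart, and the log2 change of 0.72 ± 0.08 (SE; adjusted p = 0.000569) had the lowest adjusted p of the 17 probe sets. With 202637_s_at the signals were 807.2, 925.0 and 983.0 in MALC, against 529.8, 690.2 and 647.7 in suspension, without overlap. Here the log2 change was 0.53 ± 0.12 (adjusted p = 0.00957, up to 0.0421 with 1 array left out, and 0.0778 with samples 2 and 3 averaged). The third, 215485_s_at, read 261.2, 288.8 and 293.9 in MALC, against 232.0, 250.2 and 257.2 in suspension. Its groups were also apart, but by only a few units, and its log2 change of 0.18 ± 0.08 missed the threshold (adjusted p = 0.1), which it met without MALC 1 (0.043).

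ICAM2, a constitutive LFA-1 ligand of leukocytes and endothelium, had 2 probe sets with like changes on either side of the threshold. With 213620_s_at the signals were 7505, 9132 and 9602 in MALC, against 6983, 7592 and 7171 in suspension. MALC 1 lay inside the suspension range while MALC 2 and 3 lay above it. The log2 change was 0.26 ± 0.09 (adjusted p = 0.0484), a call that held on leaving out MALC 1 and on no other omission (adjusted p up to 0.155). With 204683_at the signals were 2417, 3043 and 3126 in MALC, against 2221, 2409 and 2395 in suspension, and did not overlap. That probe set had a log2 change of 0.28 ± 0.10 and did not pass (adjusted p = 0.062), but met the threshold with a block for the number (0.0192) or when MALC 1 was omitted (0.0015).

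ICAM3, the LFA-1 ligand of resting leukocytes, had 1 probe set, 204949_at. Its signals were 2155, 2446 and 2311 in MALC, against 1944, 1963 and 1986 in suspension. All MALC arrays lay above all suspension arrays, which were close together. The log2 change was 0.23 ± 0.07 (adjusted p = 0.0278), and the call was lost without MALC 2 (adjusted p = 0.119), MALC 3 (0.0788), suspension 2 (0.0877) or suspension 3 (0.0781). ICAM1, ICAM4, ICAM5 and ICAM3 are neighbours on chromosome 19, with 3 other protein-coding genes between ICAM5 and ICAM3. ICAM4, a red cell ligand of LFA-1, and ICAM5, a neuronal one, did not pass, at log2 changes of 0.29 (adjusted p = 0.287) and 0.08 (adjusted p = 0.393) in the fit across genes.

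**Figure D3:**
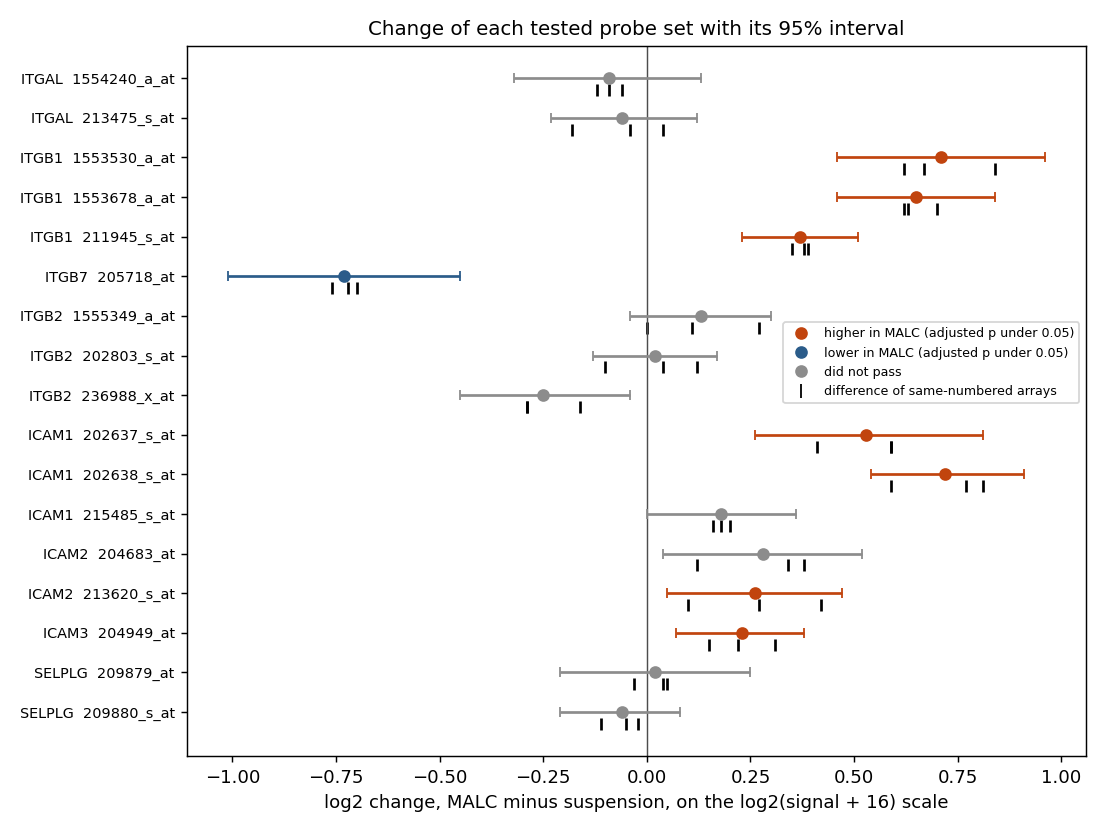
Log2 change (MALC minus suspension, on the log2(signal + 16) scale) of the 17 tested probe sets, with dots for the fitted value, bars for the 95% interval, colour for the call and black ticks for the differences of the 3 pairs of same-numbered arrays. The ITGB1 and ICAM1 calls lie between 0.37 and 0.72, ITGB7 at −0.73, and ICAM2 and ICAM3 between 0.23 and 0.28 with intervals that come close to 0.

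SELPLG had 2 probe sets with groups that overlapped. With 209880_s_at the signals were 190.1, 188.1 and 192.5 in MALC, against 205.8, 191.5 and 200.1 in suspension. The log2 change was −0.06 with an interval of −0.21 to 0.08 (adjusted p = 0.462). With 209879_at the signals were 141.5, 111.9 and 118.2 in MALC, against 136.0, 114.9 and 114.8 in suspension, where sample 1 was the highest in both forms. Its log2 change was 0.02 with an interval of −0.21 to 0.25 (adjusted p = 0.895).

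Enzymes that make selectin ligands were read from a list of 16 genes, 12 of them tested in the fit across genes. TPST2 rose and GFUS and ST3GAL4 fell, which is 25.0% of the list changed against 42.7% of all genes, with a median log2 change of −0.12 against −0.06. TPST2, a tyrosine sulfotransferase of the kind that modifies PSGL-1, read 1056, 1445 and 1575 in MALC, against 771.2, 773.1 and 774.9 in suspension. It was 1.72-fold higher (adjusted p = 0.00358). GFUS, which makes the GDP-fucose needed for sialyl Lewis x, read 381.5, 345.3 and 322.1 in MALC, against 614.0, 588.2 and 572.6 in suspension, and was 1.66-fold lower (adjusted p = 0.000576). A second GFUS probe set had a log2 change of −0.59. ST3GAL4, a sialyltransferase, was 1.21-fold lower (134.2, 131.6 and 144.6 in MALC, against 175.8, 161.4 and 167.8 in suspension). FUT7, the fucosyltransferase of leukocyte selectin ligands, and GCNT1, the core 2 branching enzyme, did not pass, at −0.11 and −0.12. Without MALC 1, 4 genes of this list fell. Without suspension 2 and suspension 3 the log2 changes of TPST2 and ST3GAL4 were 0.78 and −0.33, against 0.78 and −0.27 with all arrays, while with samples 2 and 3 averaged neither passed (adjusted p = 0.0525 and 0.0621).

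Genes that open integrins or tie them to actin were read from a list of 32, of which 28 were tested; 9 rose and 2 fell (39.3% against 42.7% of all genes), with a median log2 change of 0.10. RAPGEF1, an exchange factor for the integrin-activating GTPase RAP1, read 346.3, 300.5 and 345.2 in MALC, against 205.8, 200.2 and 212.4 in suspension. It was 1.56-fold higher (adjusted p = 0.000726), although 1 of its 3 tested probe sets had a log2 change of −0.10. RASGRP2, the RAP1 exchange factor CalDAG-GEFI, read 1378, 1541 and 1737 in MALC, against 799.5, 1178 and 1116 in suspension, and was 1.51-fold higher (adjusted p = 0.0172). On its 3 further probe sets the log2 changes were 0.24, 0.18 and −0.04, none passing, and omitting MALC 2 (adjusted p = 0.0568) or MALC 3 (0.0641) ended the call. SIPA1, which switches RAP1 off, was 1.43-fold higher as well (608.7, 706.5 and 723.1 in MALC, against 495.9, 456.4 and 452.6 in suspension). Its log2 change was 0.44 without suspension 2 and suspension 3, against 0.52 with all arrays, and it did not pass with samples 2 and 3 averaged (adjusted p = 0.0604).

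LIMS1, the adaptor PINCH1 of the integrin-linked kinase complex, rose 1.56-fold, with signals of 168.0, 199.9 and 201.1 in MALC, against 79.71, 141.2 and 134.2 in suspension; omitting MALC 2 (adjusted p = 0.0824) or MALC 3 (0.0783) ended that call. ZYX, the focal adhesion protein zyxin, was 1.60-fold lower (144.5, 120.3 and 135.2 in MALC, against 211.4, 225.6 and 232.7 in suspension). Talin 1 (TLN1), kindlin 3 (FERMT3), RAP1A and RAP1B, the core of integrin activation in leukocytes, did not pass, at log2 changes of −0.21, 0.08, −0.16 and −0.04. The rises of this list numbered 3 without MALC 2, 4 without MALC 3, 5 without suspension 2 or suspension 3 and 6 without suspension 1, and the falls 1 without MALC 2 or MALC 3 and 3 without MALC 1 or suspension 1. Without both suspension 2 and suspension 3 there were 5 rises and 2 falls, with samples 2 and 3 averaged 2 rises and 1 fall, and without the filter 5 rises and 2 falls. Of the named genes of the 5 lists, ITGAX, ZYX, RAPGEF1, GFUS, CD99, RDX, CORO1A and EZR passed with samples 2 and 3 averaged, and the others did not.

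A list of 11 genes of cortical actin held linkers that bind the tails of membrane proteins, the ICAMs and PSGL-1 among them. It also held actin-binding proteins such as CORO1A, and the regulators RHOA, ROCK1 and ROCK2. All 11 were tested, with 2 higher and 2 lower. Of the list 36.4% changed against 42.7% of all genes, with a median log2 change of −0.08 against −0.06. RDX, radixin, read 801.7, 1034 and 972.0 in MALC, against 508.4, 515.4 and 496.8 in suspension, and was 1.81-fold higher (adjusted p = 0.000719). EZR, ezrin, was 1.47-fold higher (5605, 5675 and 5194 in MALC, against 4054, 3571 and 3590 in suspension; adjusted p = 0.000876). MSN, moesin, the third member of this family, did not pass (log2 change −0.08, adjusted p = 0.333). CORO1A, the leukocyte coronin, was 1.50-fold lower, and ACTN4, an actinin, 1.29-fold lower. The ACTN4 call was lost without MALC 2 (adjusted p = 0.061), when 1 gene of the list fell; without MALC 1 there were 3 falls.

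Of 20 other adhesion ligands and receptors 13 were tested, with 2 higher and 1 lower (23.1% changed against 42.7% of all genes, and a median log2 change of −0.05 against −0.06). CD99, a glycoprotein of leukocyte passage through vessel walls, read 3683, 5250 and 5112 in MALC, against 1935, 2679 and 2600 in suspension. It was 1.94-fold higher (adjusted p = 0.00341). ALCAM, the ligand of CD6, was 1.66-fold lower (289.1, 202.8 and 187.6 in MALC, against 370.1, 397.3 and 374.4 in suspension). The ALCAM log2 change was −0.69 without suspension 2 and suspension 3, against −0.73 with all arrays, and did not pass with samples 2 and 3 averaged (adjusted p = 0.0638). CD48, a ligand of CD2 family receptors, was 1.24-fold higher at 204118_at, while its dimmer probe set 237759_at had a log2 change of −0.56 and passed as lower in the fit across probe sets (adjusted p = 0.00351). The CD48 rise did not pass on omission of MALC 2 (adjusted p = 0.089) or MALC 3 (0.072). The rises numbered 1 without MALC 3 and 3 without MALC 1, and the falls 2 without suspension 1.

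FN1, fibronectin, the matrix ligand of alpha 4 beta 1 and alpha 5 beta 1, was named after its values were seen. At 210495_x_at it read 55.57, 54.47 and 49.29 in MALC, against 60.07, 1988 and 332.4 in suspension 1, 2 and 3. Suspension 2 and 3 alone stood high, as they did for COL1A2, and suspension 1 lay near the MALC arrays. The log2 change of −2.44 ± 0.99 (SE) did not pass (adjusted p = 0.0825; 0.0464 with a block for the number, 0.00738 without suspension 1). Without suspension 2 and suspension 3 the brightest FN1 probe set was another, 214701_s_at, with a log2 change of −0.03. That probe set read 88.11, 91.77 and 80.44 in MALC, against 88.8, 91.03 and 90.04 in suspension. It did not stand high in suspension 2 and 3, unlike the other tested FN1 probe sets. In suspension 1, 2 and 3, 211719_x_at read 26.55, 2331 and 340.7, and 212464_s_at read 20.72, 1456 and 207.8. For 216442_x_at the signals were 38.43, 1127 and 203.7. The probe sets 1558199_at and 214702_at lay below the filter and did not stand high there. The part of other cells or of RNA from another source in the FN1 signal was not tested.

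**Figure D4:**
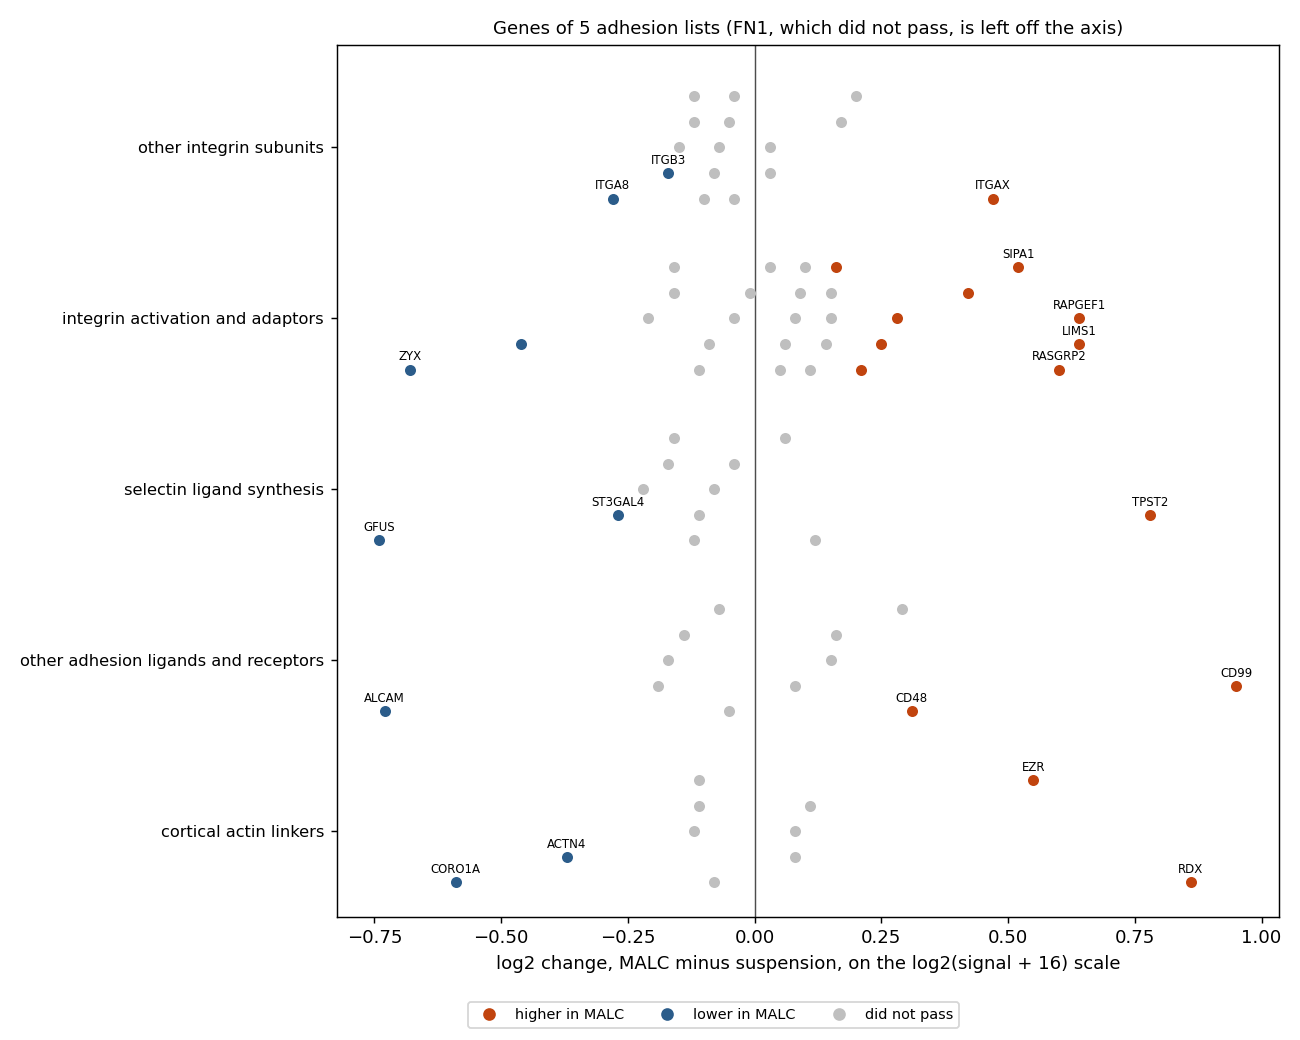
Log2 change (MALC minus suspension, on the log2(signal + 16) scale) of the tested genes of 5 adhesion lists, 1 dot per gene with its brightest probe set, coloured by the call and spread vertically within a list only for legibility. FN1 is left off. Up to 5 called genes of a list, those with the largest changes, carry their symbol, from GFUS at −0.74 to CD99 at 0.95, and grey dots near 0 did not pass.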

How the data were processed

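RNA of 6 samples, 3 MALC and 3 suspension, was hybridised to Affymetrix U133 Plus arrays after Trizol extraction and one-cycle biotin labelling of 200 ng, per the labels' protocols. The values deposited by the authors are linear intensities, 1 per probe set and array; the submitters' processing notes name MAS5 alone, and neither its version nor how background and scale were set is given in the sources used here. If the arrays were scaled before deposit, a shift of all transcripts would not be seen.

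Groups came from the sample titles. The annotation gave 1 symbol for 41091 of the 54613 probe sets that are not controls, several for 1801 and none for 11721; 41037 matched a current symbol in RefSeq (GRCh38.p14). Intensities were set to log2(signal + 16), probe sets whose mean fell under the 40th percentile were dropped, and limma 3.58.1 in R 4.3.3 (lmFit on group alone, then eBayes with a trend; two-sided) was run across 32768 probe sets, and across 13765 genes with each gene's brightest probe set. Benjamini-Hochberg adjustment covered all features tested, with a threshold of 0.05. Fold changes understate those of dim probe sets. Sequences came from the RefSeq promoter table, which held 5 of the 9 genes. The code was tested on simulated data. Every probe set of the 9 genes was named, and of each list up to 5 called genes without overlap between groups, taken by size of change; other list genes were chosen after their values were seen. Members and lists were chosen with earlier results of these data known. The number of arrays limits the precision.

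Both groups use the numbers 1, 2 and 3. Same-numbered arrays correlated, in their deviations from group means, at 0.245, 0.168 and 0.14, and MALC 3 with suspension 2 at 0.175; the pairing rests on these values alone, as no label explains the numbers. The number as a replicate block was an alternative, given where it changed a call. The others were the pseudocount, the filter, quantile normalization, median centring, no trend, array weights, leaving out arrays, averaging samples 2 and 3, and the choice of probe sets.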

Additional observations from a re-analysis of the deposited data

How the results depend on the processing

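The ITGB1, ITGB7 and 202638_s_at ICAM1 calls passed under every alternative that tested them. In the alternative without suspension 2 and suspension 3, chosen after seeing the data, the lone suspension array was assumed to vary like the MALC arrays, so calls kept or lost there carry little weight. The 7 probe sets called higher in MALC numbered 4 with samples 2 and 3 averaged and 3 without _s_at and _x_at probe sets, where fewer were tested, and ranged from 5 to 9 with 1 array left out. The 1 called lower became 2 (ITGB7 and 236988_x_at of ITGB2) with the stricter filter, quantile normalization, no trend, array weights or the replicate block, and ranged from 1 to 2 with 1 array left out; the cause was not tested.

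Of all tested probe sets 6948 were higher and 6701 lower. These were 3072 and 1995 with samples 2 and 3 averaged, 4538 and 3835 without _s_at and _x_at probe sets (fewer tested), and 3948 and 2562 without suspension 2 and suspension 3. With array weights 10306 were lower. Leaving out 1 array gave 4956 to 7575 higher and 4411 to 7460 lower, the fewest lower without MALC 2. Of all genes 2611 were higher and 3266 lower, against 1235 and 1112 with samples 2 and 3 averaged and 1469 and 1386 without suspension 2 and suspension 3; 5230 were lower with array weights, and 1880 to 2859 were higher and 2113 to 3632 lower with 1 array left out.

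Of the genes of the 5 adhesion lists 15 were higher and 9 lower. They numbered 24 and 18 with array weights and 6 and 3 with samples 2 and 3 averaged. Without suspension 2 and suspension 3, 9 were higher, and without _s_at and _x_at probe sets 5 were lower. With 1 array left out 9 to 16 were higher, 9 without MALC 2 or MALC 3, and 6 to 12 lower. The replicate block changed the calls of 204683_at (ICAM2), 236988_x_at (ITGB2) and ITGB3 among the probe sets and genes named by rule.

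Directions turned only for values that did not pass, and for CD48. For 202803_s_at of ITGB2 the log2 change was −0.04 with array weights and −0.02 to 0.06 with 1 array left out. For 209879_at of SELPLG it was −0.02 after quantile normalization, −0.01 with array weights, −0.13 without suspension 2 and suspension 3 and −0.07 to 0.09 with 1 array left out. For CD48 it was −0.13 with the mean of probe sets (adjusted p = 0.201), since its probe sets moved in opposite directions. Signal over background limits what can be said of ITGA4 and of 4 ITGB1 probe sets; without the filter, 215878_at and 216178_x_at of ITGB1 passed as higher (adjusted p = 0.0185 and 0.0175) at signals under 28.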
